A study of Homo sapiens with 28 samples.

Results

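The genes described here encode the ubiquitin ligase through which lenalidomide acts and some of the proteins it degrades: CRBN, DDB1, CUL4A, RBX1, CSNK1A1, ZFP91, GSPT1 and GLUL. Every accessible region whose nearest annotated transcription start belonged to one of these 8 genes was taken, whether at the start or distant from it. This gave 20 of the 154985 regions of the series, 9 for CRBN, 4 for GLUL, 2 each for DDB1 and CUL4A, 1 each for RBX1, CSNK1A1 and GSPT1, and 0 for ZFP91. ATAC-seq, which reads out where a transposase can enter chromatin and tag the DNA, was run on 22 untreated human myeloma cell lines. Of these, Karpas620, KMS27, L363, MM1S, OPM2 and RPMI8226 were also assayed on day 3 of 10 µM lenalidomide, which makes 28 libraries. The controls are labelled as having no treatment, and no vehicle is named. Each line was assayed once per condition, so a line carries no replicate error, lines are the unit of every comparison, and p-values measure the spread between these libraries.

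Cereblon, the product of CRBN, is the substrate receptor of a cullin-RING ligase. DDB1 links it to the scaffold CUL4A, and RBX1 brings in the ubiquitin-conjugating enzyme. Lenalidomide binds cereblon and redirects the ligase to proteins that it otherwise leaves alone, such as the lymphoid transcription factors IKZF1 and IKZF3, the kinase encoded by CSNK1A1 and the zinc-finger protein ZFP91. GSPT1, a translation termination factor, is degraded with other drugs of this class, and glutamine synthetase, the product of GLUL, is a natural substrate of cereblon. Myeloma is a malignancy of plasma cells in which these drugs are a mainstay of treatment.

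The libraries held between 1599857 and 5564534 counts in regions, and values are given as CPM, the counts of a region scaled to a fixed library total. For a single library the 95% Wilson interval is given in parentheses, which holds counting error alone. A region was called accessible in a library where that library had a peak in it. As a check of the label, 6 of 7 plasma cell promoters were called in at least 18 of 22 untreated lines, with PRDM1 and TNFRSF17 in all 22 and SLAMF7 in 2, whereas none of the 8 B, T and myeloid promoters measured was called in more than 3. Among erythroid promoters, KLF1 was called in 14 lines and HBB in 9. CPM was not corrected for DNA copy number, so the deviation of the open promoters within 5 Mb is given beside the start regions.

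The start regions of CRBN, DDB1, RBX1 and CSNK1A1 were called in all 22 untreated lines, and that of GLUL in 17. The region assigned to CUL4A, which covers none of its RefSeq starts, was called in 10, and the internal GSPT1 region in 1. Regions listed under neighbouring genes were called in 21 lines over the first CUL4A start and in 22 over the GSPT1 start. Calls did not follow CPM alone, so a line without a call is not shown to be closed. At the region assigned to CUL4A, H1112 with 5564534 counts was called at 5.75 CPM. OPM2 with 1916890 counts was not called there at 12.5 CPM. At GLUL, KMS27 was called at 5.73 CPM and L363 was not at 7.65 CPM. The part of depth in the calls was not tested. Of the 20 regions, 4 were called in all 28 libraries, those at the starts of CRBN, DDB1, RBX1 and CSNK1A1. A further 8 were called in 1 library only and 13 had a mean below 6 CPM over the untreated lines. For all regions of the series these shares were 3.90% in every library and 37.2% in a single one. Among the 18012 regions that cover a start, 29.2% were called in all 28.

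**Figure D1:**
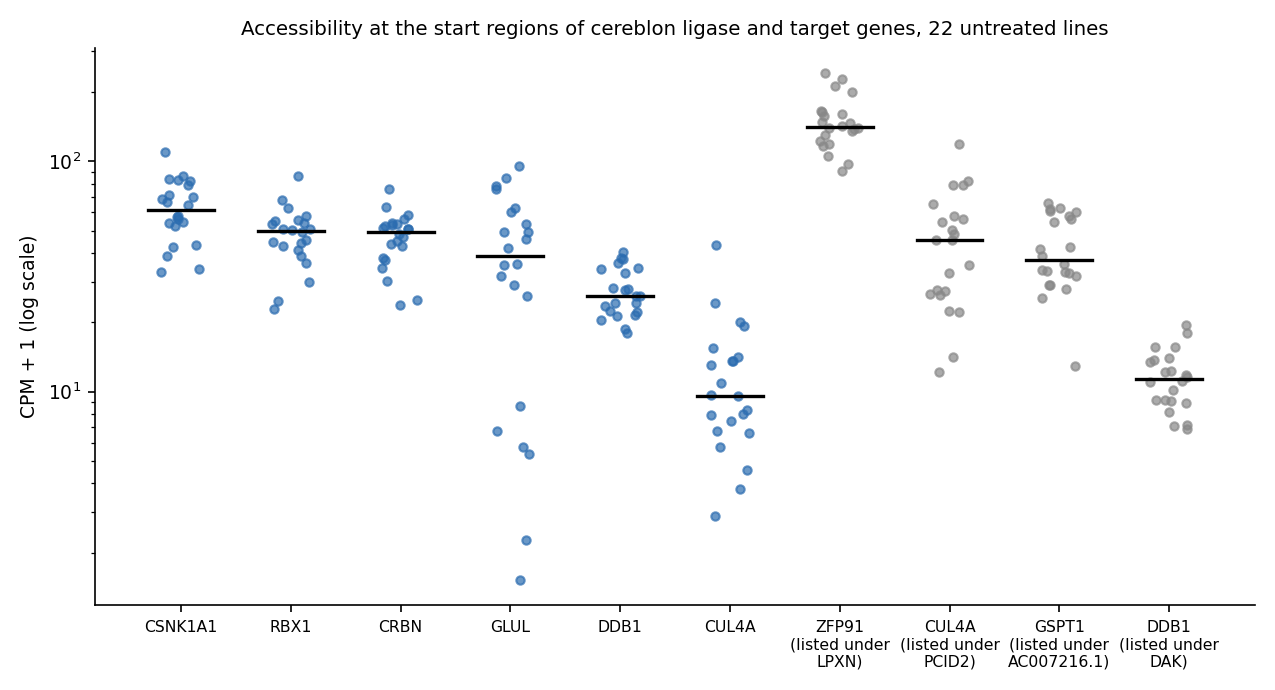
CPM + 1 on a log scale at the start regions of the members in the 22 untreated lines, 1 point a line, with the median as a bar. Blue regions belong to the members by nearest start. Grey regions overlap a member's start, or lie near it in the case of DDB1, but are listed under a neighbouring gene. GLUL runs from 0.522 to 94.7 CPM, while CRBN, DDB1, RBX1 and CSNK1A1 stay above 16 CPM in every line.

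CRBN (ENSG00000113851) lies on the minus strand of chromosome 3 of GRCh37. Its start region, chr3:3220927-3221807, covers the promoter, the first exon with its 5′ UTR and the beginning of the first intron. It had 46.0 ± 12.3 CPM (SD, n = 22), with a lowest value of 22.7 CPM in KMS28 (17.2 to 30.0), a median of 48.5 and a highest value of 74.6 CPM in KMS26 (62.5 to 89.0). No line lacked an accessible CRBN promoter. The sequence just upstream of the RefSeq start at position 3221401, up to the annotated exons, is chr3:3221412-3221651, read on the minus strand. It is shown because this is the promoter of the drug's receptor. Capitals mark a match to a core of the CTCF motif, searched as CC, any 3 bases and then AGGGGGC, where CTCF is a factor of chromatin boundaries. That match is found in 1.601% of 34794 RefSeq promoter windows of 250 bases when both strands are searched.
CRBN promoter: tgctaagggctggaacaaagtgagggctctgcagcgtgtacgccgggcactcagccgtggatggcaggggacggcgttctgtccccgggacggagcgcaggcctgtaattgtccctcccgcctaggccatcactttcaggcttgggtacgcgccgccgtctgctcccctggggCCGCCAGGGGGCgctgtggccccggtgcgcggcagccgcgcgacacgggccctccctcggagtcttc
The match begins 77 bases before the start, and the sequence has a GC content of 70.4%. A sequence match is a description of the letters and says nothing of binding in these cells.

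Between lines the level of the CRBN promoter ran from 22.7 to 74.6 CPM, with counting intervals apart at these ends. On the log2(CPM + 1) scale its SD was 0.41, below that of most regions of similar level. Of the 1380 regions with a mean within 10% of it, promoter and distal together, 13.8% varied less. In KMS28, the lowest line, the 7 neighbouring open promoters were also low, by a log2 deviation of -0.66, and in KMS26, the highest line, they were high by 0.62. After the median deviation of these neighbours was subtracted, the SD of CRBN was 0.27. What sets this shared part was not tested. The promoters with the most similar pattern over the 22 lines, among 11041 of at least 10 CPM, were on the same chromosome NKIRAS1 (Pearson r = 0.79), OGG1 (r = 0.79) and SGOL1 (r = 0.77), at 20.7, 6.57 and 17.01 Mb. On other chromosomes they were PWP1, EPG5 and ORC4, each with r = 0.70. These are the highest of many coefficients over points that share a library, and are given as a description.

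Upstream of CRBN, outside annotated genes, the region chr3:3242826-3243788 at 21.4 kb was the strongest of the 8 other CRBN regions and varied more than the promoter. It had 13.8 ± 8.68 CPM (SD, n = 22) and was called in 15 of 22 untreated lines. Its lowest value was 3.12 CPM in Karpas620 (1.64 to 5.93), its median 13.2 and its highest 30.0 CPM in LP1 (23.7 to 37.9). The neighbouring promoters went the other way in these lines, with deviations of 0.42 in Karpas620 and -0.16 in LP1. Subtraction of the neighbours left its SD at 0.91 against 0.92 before. Among regions of similar level such a spread was common, with 41.3% of 2957 regions varying less. Over the 22 lines its level followed that of the CRBN promoter only loosely (Pearson r = 0.20, Spearman rho = 0.31), and r was 0.11 without the 2 lines farthest from the median. Among CRBN regions of at least 2 CPM the largest SD on the log2 scale, 1.04, was that of chr3:3322773-3323333, in an annotated intron 101 kb upstream of the start, with 4.32 ± 3.74 CPM and a highest value of 13.8 CPM in PE1. The other 6 CRBN regions had means between 0.849 and 4.19 CPM and were called in 1 to 3 libraries.

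**Figure D2:**
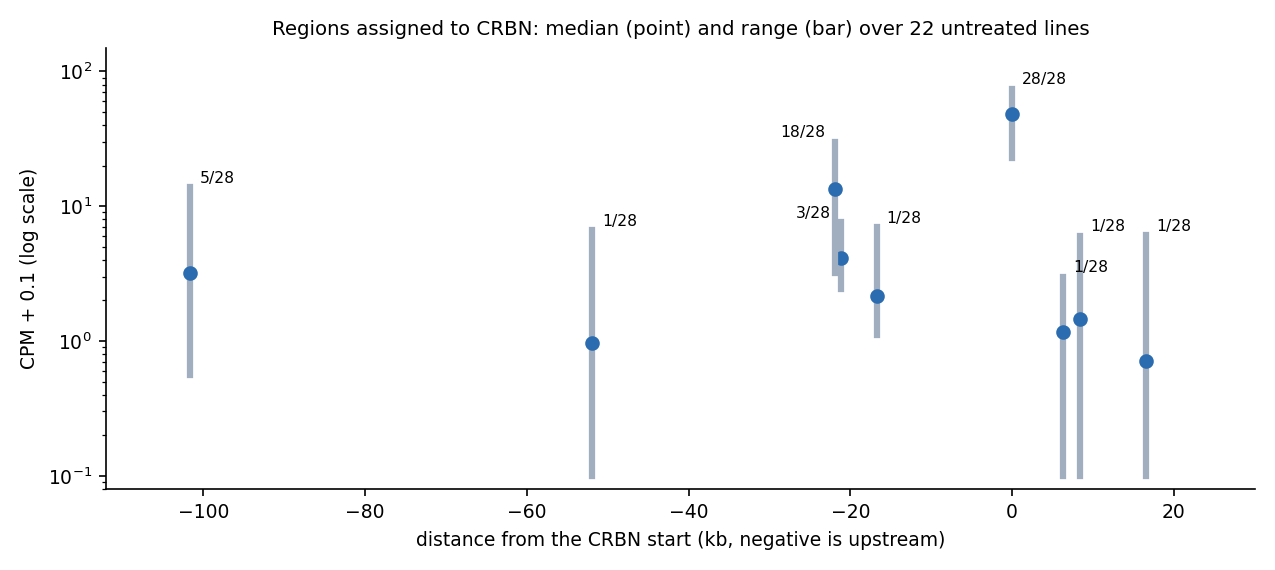
Regions assigned to CRBN by distance in kb from its start, with the median (point) and range (bar) of CPM + 0.1 over the 22 untreated lines on a log scale. Labels give the number of the 28 libraries in which each region was called, 28 at the start and 18 at the region 21.4 kb upstream.

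The partners of cereblon in the ligase differed in how steady they were. DDB1 (ENSG00000167986), the adaptor, had 26.5 ± 6.75 CPM (SD, n = 22) at chr11:61100332-61101045, from 16.9 CPM in H1112 over a median of 25.0 to 39.5 CPM in KMS27. Its SD was 0.35 on the log2 scale, and only 1.94% of 1903 regions of similar level varied less. The 78 neighbouring open promoters deviated by -0.46 in H1112 and 0.72 in KMS27, and the SD after their subtraction was 0.31. The level moved with the share of a library's counts that lay in regions covering a start (Pearson r = 0.72, Spearman rho = 0.76, 22 lines; r = 0.70 without the 2 farthest), a library property whose part was not tested. A second DDB1 region, chr11:61095877-61096277 in an intron, was called in PCM6 alone, with 34.4 CPM (27.4 to 43.2) there and a median of 0.676 CPM over all lines.

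RBX1 (ENSG00000100387), the RING subunit, had 47.4 ± 14.1 CPM (SD, n = 22) at chr22:41346851-41348210. KMS12PE was lowest with 21.9 CPM (17.7 to 27.0), the median was 48.7, and L363 was highest with 85.2 CPM (73.2 to 99.1). The 29 neighbouring open promoters deviated in the same direction, by -0.91 in KMS12PE and 0.73 in L363, and subtracting them lowered the SD from 0.45 to 0.24. The RBX1 level also moved with the share of counts in regions covering a start (r = 0.44, rho = 0.46, and r = 0.52 without the 2 farthest lines). The part of that share was not tested. The sequence upstream of the RBX1 start, chr22:41347132-41347350 on the plus strand, is given because it is dense in promoter motifs. Capitals mark the E-box CACGTG, present in 6.31% of the RefSeq windows on either strand, and GC boxes, GGGCGG or its reverse complement CCGCCC, present in 42.6%.
RBX1 promoter: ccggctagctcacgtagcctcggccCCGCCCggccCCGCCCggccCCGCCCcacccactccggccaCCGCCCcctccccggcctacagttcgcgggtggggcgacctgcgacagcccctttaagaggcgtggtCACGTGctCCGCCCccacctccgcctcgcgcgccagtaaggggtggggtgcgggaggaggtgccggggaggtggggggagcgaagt
It holds 1 E-box, 117 bases before the start, and 5 GC boxes, and its GC content is 76.7%.

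CUL4A (ENSG00000139842), the scaffold, had the largest SD of the 4 ligase subunits on the log2 scale, 0.91, although only 34.6% of 3645 regions of similar level varied less. The region assigned to it, chr13:113864038-113864640, covers none of its RefSeq starts, and the one over the first of these is described below. The assigned region had 11.2 ± 8.87 CPM (SD, n = 22) and was called in 10 of 22 untreated lines. It ran from 1.88 CPM in PE1 (0.638 to 5.51) over a median of 8.61 to 42.3 CPM in Karpas620 (35.5 to 50.5), and the next line below Karpas620 was KMS27 with 23.3 CPM. The 9 neighbouring open promoters deviated by -1.02 in PE1 and 1.16 in Karpas620, and after their subtraction the SD fell from 0.91 to 0.46. The share of counts in regions covering a start also moved with it (r = 0.69, rho = 0.78; r = 0.71 without the 2 farthest). The part of either in the spread of CUL4A was not tested. The other CUL4A region, chr13:113886337-113886502 in an intron, had 1.66 CPM on average and was called in 1 library.

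Among the targets, CSNK1A1 (ENSG00000113712), which encodes casein kinase 1 alpha, had the highest CPM of the member promoters assigned by nearest start. The region over the ZFP91 start, listed under LPXN, had more, with a mean of 149 CPM. The CSNK1A1 region chr5:148930612-148931545 also overlaps the promoter of ARHGEF37. It had 62.1 ± 19.3 CPM (SD, n = 22), with 32.2 CPM in KMS11 (25.5 to 40.6) as the lowest value, a median of 60.1 and 109 CPM in KMS18 (94.5 to 125) as the highest. Neighbouring promoters again deviated the same way, by -0.41 and 0.79 in these lines, and the SD was 0.46 before and 0.28 after their subtraction. The CSNK1A1 level also moved with the share of counts in regions covering a start (r = 0.53, rho = 0.56, and r = 0.47 without the 2 farthest lines). For the CRBN promoter this relation was weaker (r = 0.15, rho = 0.17). The part of that share was not tested. The promoter sequence of this target, chr5:148931035-148931252 on the minus strand, holds the ETS motif CCGGAAGT, found in 3.41% of RefSeq windows on either strand, and 2 GC boxes, all in capitals.
CSNK1A1 promoter: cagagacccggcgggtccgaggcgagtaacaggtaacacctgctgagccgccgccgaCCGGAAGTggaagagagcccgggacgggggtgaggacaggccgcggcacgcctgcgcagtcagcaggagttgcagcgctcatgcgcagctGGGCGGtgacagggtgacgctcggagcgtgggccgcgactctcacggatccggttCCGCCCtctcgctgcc
The ETS motif begins 193 bases before the start at position 148931002.

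GLUL (ENSG00000135821) was the member that differed most between lines. Its start region chr1:182360207-182361313, which covers the promoter, the first exon with 5′ UTR and part of an intron, had a mean of 39.2 CPM with an SD of 28.3 (n = 22) and was called in 17 of 22 untreated lines. OPM2 had 0.522 CPM (0.0921 to 2.96), which was 1 count. KMS12PE had 1.27 CPM (0.543 to 2.98) and XG-6 had 4.37 CPM (2.12 to 9.02). KMS21BM had 4.76 CPM, KMS27 5.73 CPM and L363 7.65 CPM (4.64 to 12.6). The next line, KMS28, had 25.0 CPM (19.2 to 32.7), so its interval did not overlap those of the 6 lowest lines. The median of the 22 lines was 37.9 CPM. The 250 bases before its start at position 182360925 had a GC content of 74.8%, 2 CCAAT boxes (CCAAT, in 32.0% of RefSeq windows) and 2 GC boxes. The highest values were 76.8 CPM in KMS18, 83.1 CPM in KMS26 and 94.7 CPM in LP1 (82.9 to 108).

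The spread of GLUL was large for a region of its level, with promoter and distal regions compared together. Its SD of 1.75 on the log2 scale exceeded that of 96.5% of the 1541 regions with a mean within 10%, whose median SD was 0.56. It was the only one of the 7 member promoters above the 90th percentile in this measure. The 25 neighbouring open promoters did not follow it. They deviated by 0.36 in OPM2, 0.31 in KMS12PE, -0.25 in XG-6, 0.48 in KMS21BM, 0.70 in KMS27 and 0.24 in L363, so in 5 of these 6 lines they were above their mean, and in LP1 they deviated by 0.49. After their subtraction the SD of GLUL was 1.92. Neither the total count (r = 0.14, rho = 0.14; r = 0.26 without the 2 farthest lines) nor the share of counts in regions covering a start (r = -0.15, rho = -0.05; r = -0.13) moved much with it. GLUL also had little relation to the other well-covered member promoters, with r between -0.16 and 0.22 over 5 pairs. A median over neighbours within 5 Mb does not measure the copy number of GLUL itself. What sets the spread of GLUL was not tested.

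**Figure D3:**
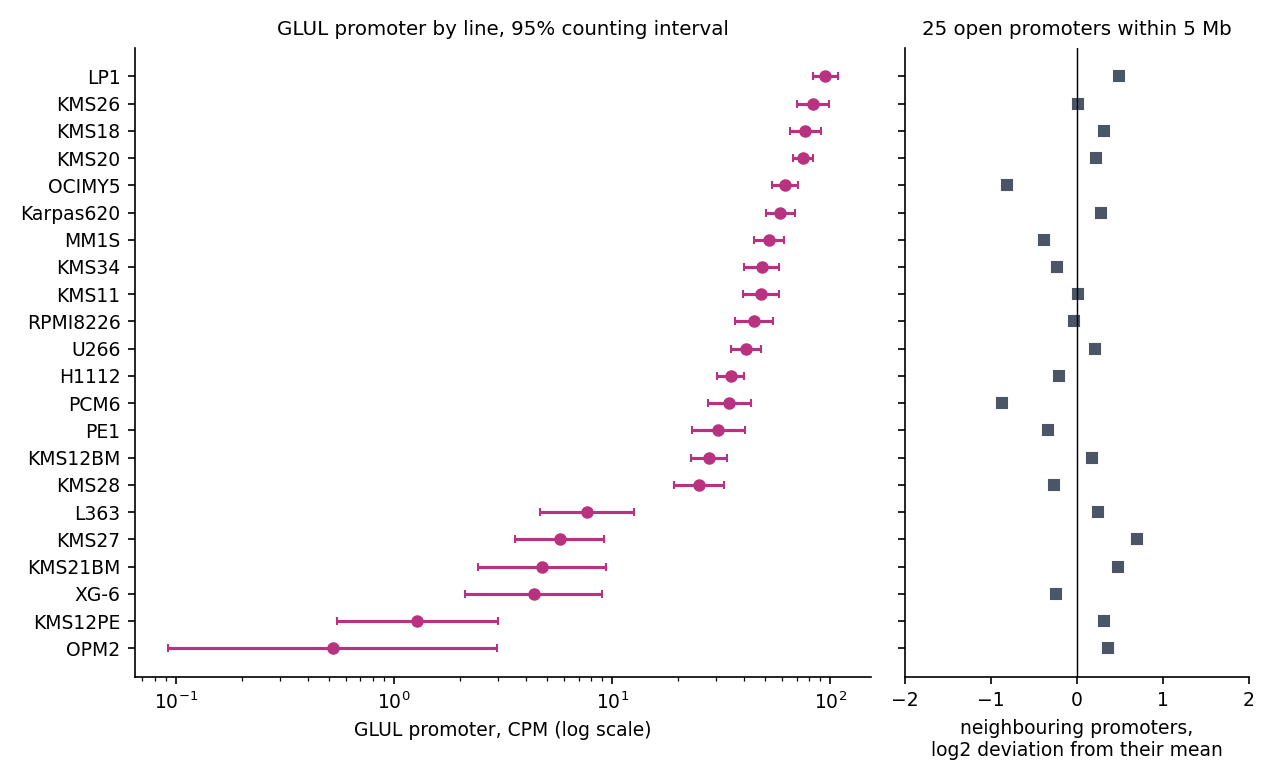
Left, CPM of the GLUL promoter on a log scale in each untreated line with 95% Wilson intervals. Right, median log2 deviation of the 25 open promoters within 5 Mb. The 6 lowest lines run from 0.522 to 7.65 CPM and the next is at 25.0 CPM, while the neighbouring promoters stay between -0.88 and 0.70.

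KMS12BM and KMS12PE, lines established from the same patient, lay on either side of this gap. GLUL had 27.9 CPM (23.1 to 33.7) in KMS12BM and 1.27 CPM in KMS12PE, a ratio of 21.9, from 106 and 5 counts. CRBN had 53.1 and 51.7 CPM, CSNK1A1 41.3 and 37.7 CPM, and DDB1 33.4 and 35.1 CPM, with overlapping intervals in each case. RBX1 differed as well, with 57.1 CPM (49.96 to 65.2) against 21.9 CPM (17.7 to 27.0). The 29 open promoters near RBX1 deviated by -0.91 in KMS12PE. Those near GLUL deviated by 0.17 in KMS12BM and 0.31 in KMS12PE. The part of the neighbourhood in these differences was not tested. The intervals were also apart at the ZFP91 start, with 117 against 199 CPM, and at the GSPT1 start, with 53.6 against 34.9 CPM, both in regions listed under other genes. Over 11041 promoters the 2 lines were more alike than KMS12BM was to any other line (r = 0.76 against at most 0.67), and 99.4% of promoters had a smaller log2 difference of KMS12BM minus KMS12PE than GLUL, with 3.67. With 1 library of each line there is no test of this difference.

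The other GLUL regions were weak. The one with the highest mean and the highest SD was chr1:182358744-182359021, inside the gene and 0.417 kb from another annotated start. It had 5.72 ± 7.86 CPM (SD, n = 22), with 28.2 CPM in LP1, 22.1 CPM in KMS20 and 21.7 CPM in H1112, and at most 8.22 CPM elsewhere. It followed the start region only in part (r = 0.39, rho = 0.45; r = 0.41 without the 2 farthest lines). The remaining 2, at 10.96 and 4.93 kb from the nearest GLUL start and outside annotated genes, had means of 3.96 and 1.41 CPM.

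For GSPT1 (ENSG00000103342) and ZFP91 (ENSG00000186660) the choice by nearest start caught little. The single GSPT1 region, chr16:11987595-11987828, lies in an intron 1.31 kb from an internal start, had 0.543 ± 1.10 CPM and was called in U266 alone, with 5.19 CPM. Regions over the main starts of these genes exist but are listed under neighbours, and they were added after values had been seen. The ZFP91 start lies in chr11:58345109-58347460, which also covers the start of LPXN, and had 149 ± 39.8 CPM (SD, n = 22), between 89.3 CPM in KMS26 and 240 CPM in KMS27, where the 36 neighbouring open promoters deviated by -0.28 and 0.72. The GSPT1 start lies in chr16:12009560-12010311, listed under AC007216.1, with 41.2 ± 15.1 CPM and a range from 11.9 CPM in PE1 to 65.1 CPM in KMS18, where its 20 neighbours deviated by -0.36 and 0.33. Both were called in all 28 libraries, and both moved with the share of counts in regions covering a start. For that share r was 0.61 and rho 0.60 at the ZFP91 start, and r was 0.66 and rho 0.71 at the GSPT1 start. Its part in either level was not tested. The first CUL4A start lies in chr13:113862376-113863815, listed under PCID2, with 45.7 ± 26.2 CPM, from 11.2 CPM in KMS20 to 117 CPM in Karpas620. It was called in 27 libraries, and its SD fell from 0.84 to 0.31 once the neighbours were subtracted. A region near the start of DDB1 listed under DAK, chr11:61103575-61104120, had 10.6 ± 3.46 CPM. Reads in regions over 2 genes cannot be assigned to either.

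To compare levels between genes, CPM was divided by the width of the region assigned to each gene at or nearest its start. For GSPT1 this is the internal region, and for CUL4A it is a region that covers none of its RefSeq starts. Their places in the order are those of the regions and not of the genes. The order by mean CPM per kb was CSNK1A1 with 66.5, CRBN with 52.2, DDB1 with 37.1, GLUL with 35.4, RBX1 with 34.8, CUL4A with 18.6 and GSPT1 with 2.32. On the log2(CPM per kb + 1) scale, CSNK1A1 exceeded CRBN by 0.33 with an SD of the difference of 0.55 and in 16 of 22 lines, and CRBN exceeded DDB1 by 0.47 with an SD of 0.56 and in 18 of 22. DDB1, GLUL and RBX1 were not separated beyond their spread, and RBX1 was above GLUL on the log2 scale. RBX1 exceeded CUL4A by 1.12 with an SD of 0.99 and in 20 of 22 lines, and CUL4A exceeded GSPT1 by 2.89 with an SD of 1.499 in 21 of 22. The regions over starts that are listed under other genes had 63.3 CPM per kb for ZFP91, 54.8 for GSPT1, which is above CRBN, and 31.7 for the first CUL4A start. As a level, CSNK1A1 had a higher mean CPM than 90.1% of the 18012 regions covering a start, RBX1 than 82.6% and CRBN than 81.6%. For the region assigned to CUL4A this was 41.1%. The region over the first CUL4A start, listed under PCID2, was not ranked but had 45.7 CPM, beside 46.0 CPM for CRBN.

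To ask whether the drug altered the accessibility of its own target pathway, the 6 lenalidomide libraries were compared with untreated libraries of the same lines. None of the member regions passed the threshold. Of the 20 regions, 7 had enough counts to be tested, and 0 of 7 had an adjusted p below 0.05 in edgeR's quasi-likelihood test, beside 5.40% of all 37732 regions tested. The number at an unadjusted p below 0.05 was also 0, where all regions had 17.3%, and DESeq2 gave 0 by both measures beside 2.35% of all regions by adjusted p. The estimates were negative in 4 regions and positive in 3, with a median log2 change of -0.04 against -0.01 over all regions tested. The 95% intervals of the 7 changes lay between 0.651-fold and 1.31-fold. The other 13 regions had at most 46 counts in any of the 12 libraries and were not tested.

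The CRBN promoter had 47.2, 42.5, 45.9, 54.9, 51.1 and 43.9 CPM in untreated Karpas620, KMS27, L363, MM1S, OPM2 and RPMI8226, and 39.5, 49.3, 48.4, 49.0, 33.0 and 28.2 CPM after lenalidomide. It was lower in 4 pairs and higher in 2, and the groups overlap. The log2 change was -0.21 ± 0.12 (SE, 95% interval -0.45 to 0.02, edgeR p = 0.0755, adjusted p = 0.354). In OPM2 and RPMI8226 the counting intervals of the pair did not overlap, with 42.0 to 62.3 against 26.3 to 41.5 CPM and 35.9 to 53.8 against 23.6 to 33.8 CPM, though each rests on 1 library per condition. The log2 change at the region 21.4 kb upstream was -0.11 ± 0.25 (SE, adjusted p = 0.887 by edgeR), with 3 pairs higher and 3 lower. In RPMI8226 it was at 5.19 CPM before and 1.41 CPM after the drug, and in Karpas620 at 3.12 and 6.26 CPM.

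The ligase partners and the kinase target had smaller estimates. The log2 change was 0.12 ± 0.13 (SE) at DDB1, -0.07 ± 0.17 at CUL4A, 0.001 ± 0.11 at RBX1, a sign that turned with the scaling, and -0.04 ± 0.08 at CSNK1A1, with edgeR adjusted p-values between 0.742 and 0.998. CSNK1A1 was measured most tightly, with a 95% interval from 0.867-fold to 1.10-fold, and its CPM was lower in 6 of 6 pairs by small amounts, from 85.3 to 80.7 CPM in KMS27 and from 82.6 to 82.5 CPM in L363, although its estimate was 0.0246 without the filter on low counts. RBX1 had a higher CPM with the drug in 3 pairs, such as 43.0 and then 58.9 in RPMI8226, and a lower one in 3, such as 85.2 and then 71.0 in L363.

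At GLUL the lines stayed apart under both conditions. Karpas620, MM1S and RPMI8226 had 59.0, 52.5 and 44.9 CPM untreated and 53.6, 46.1 and 44.7 CPM with the drug. L363 had 7.65 and 5.99 CPM, KMS27 had 5.73 and 10.9 CPM, and OPM2 had 0.522 and 3.62 CPM. The 3 lines below 10 CPM when untreated thus stayed at or below 10.9 CPM, and in each pair the counting intervals overlapped. The log2 change was 0.04 ± 0.16 (SE, 95% interval -0.29 to 0.37, edgeR adjusted p = 0.944), and its sign turned without KMS27 or OPM2. With counts summed over all regions of a gene, 0 of the 6 member genes tested passed the threshold with edgeR, at an unadjusted p below 0.05 or with DESeq2, beside 2.13% of 27111 genes. The summed change of CRBN was -0.18 ± 0.11 (SE, edgeR adjusted p = 0.499).

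**Figure D4:**
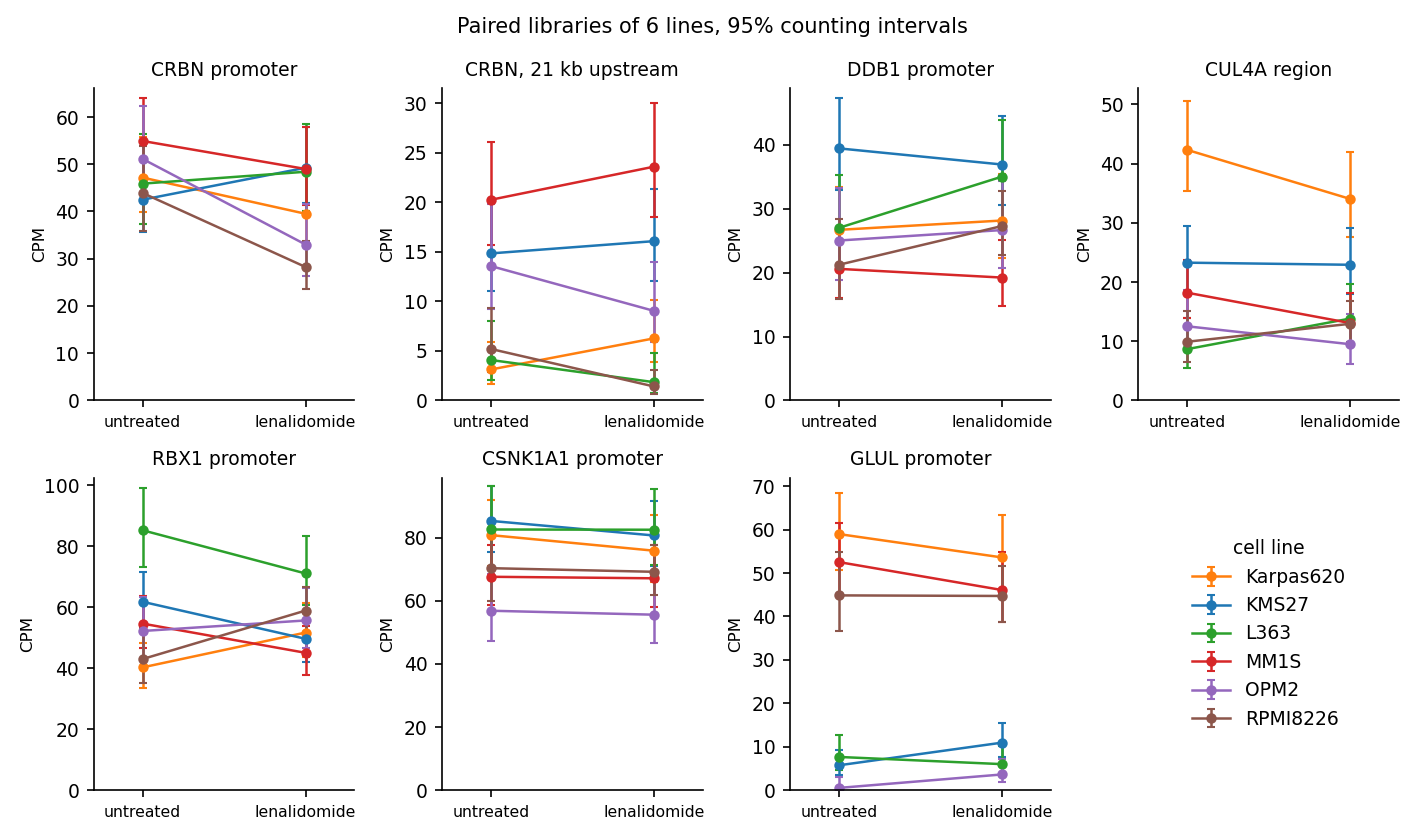
CPM of the 7 tested member regions in untreated and lenalidomide libraries, 1 line per cell line, with 95% Wilson intervals. At the CRBN promoter OPM2 is at 51.1 and 33.0 CPM and RPMI8226 at 43.9 and 28.2 CPM, and at GLUL the lines keep apart under both conditions.

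The 4 regions over or near member starts that are listed under other genes did not pass the threshold. The log2 change was -0.12 ± 0.07 (SE) at the ZFP91 start, -0.18 ± 0.10 at the GSPT1 start and -0.14 ± 0.10 at the first CUL4A start, each lower in 5 of 6 pairs, and 0.23 ± 0.22 at the region near DDB1. Their edgeR adjusted p-values were between 0.338 and 0.655.

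**Figure D5:**
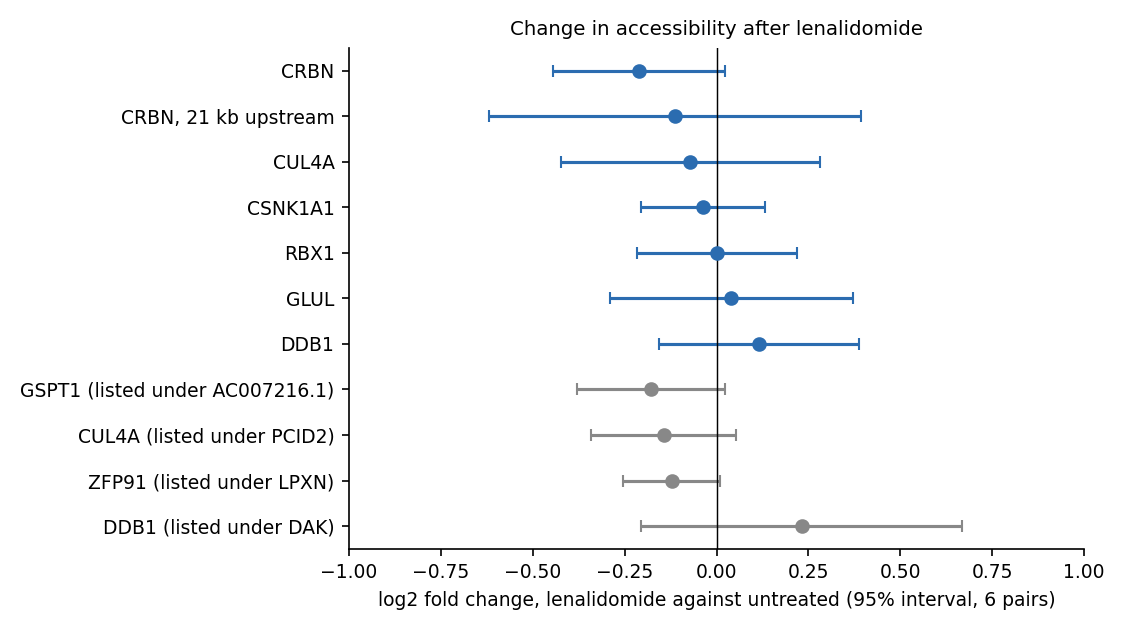
Log2 fold change of lenalidomide against untreated with its 95% interval from edgeR over 6 pairs, for the 7 tested member regions (blue) and 4 regions over or near member starts listed under other genes (grey). All intervals include 0. The estimates run from -0.21 at the CRBN promoter to 0.23 at the region listed under DAK.

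The rest of the pathway was read from lists. Of 31 genes of ligase assembly and neddylation, the modification that activates cullins, 27 had a tested promoter and 0 passed the threshold with edgeR or DESeq2, with 1 at an unadjusted p below 0.05, beside 5.40% of all regions past the threshold with edgeR, 2.35% with DESeq2 and 17.3% at that unadjusted p. Their median log2 change was -0.02. Of 25 other substrate receptors of DDB1 and CUL4 ligases, 19 were tested, 0 passed with either tool and 3 had an unadjusted p below 0.05, with a median of -0.08. Of 24 other reported targets and partners of cereblon, 17 were tested, with a median of -0.09, and 1 was lowered with both tools, the same 1 that had an unadjusted p below 0.05. This was ZNF692, a zinc-finger protein reported to be degraded through cereblon. Its promoter, chr1:249152113-249153606, had 128, 234, 150, 103, 219 and 117 CPM in untreated Karpas620, KMS27, L363, MM1S, OPM2 and RPMI8226, and 91.2, 207, 93.6, 85.7, 158 and 99.8 CPM with lenalidomide. It was thus lower in 6 of 6 pairs, although the ranges of the groups overlap. The log2 change was -0.37 ± 0.07 (SE, edgeR adjusted p = 0.00141). The call held when any 1 pair was left out and was lost when the cell line was not in the model (edgeR adjusted p = 1.00), where differences between lines enter the error. ZNF692 was 1 of 17 tested in its list and the only promoter of any list past the threshold. The lists were set with earlier results of these data known. Among all regions 5.40% passed in either direction with edgeR and 2.35% with DESeq2. Those lowered were 1.22% with edgeR and 0.315% with DESeq2. This 1 promoter is therefore not read as a result about the targets of cereblon. The promoter of IKZF1 had a log2 change of -0.15 ± 0.13 (SE, edgeR adjusted p = 0.624). For IKZF3 the region taken was chr17:37934132-37934789, the one nearest to an annotated start. Whether that is the main start of the gene was not checked, so the state of its main promoter is not described. The region had 4.62 CPM on average, was called in 4 of 22 untreated lines and was not tested.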

How the data were processed

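The authors aligned reads to GRCh37 with Bowtie2 2.2.6, used SAMtools 1.7 and called peaks per library with MACS2 2.1.0.20151222, per the labels, and merged the peaks into regions. The deposited values used were raw counts per region and library. Whether duplicates were removed, read ends shifted for the transposase, or reads or fragments counted is not given in the sources used here. A second deposited table, whole numbers that the files do not define, was read as the number of a library's peaks in a region. Only autosomal regions are in the files.

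CPM was computed from the counts, and log2 values used a pseudocount of 1. Lenalidomide was tested with edgeR 4.0.16 (R 4.3.3, limma 3.58.1) on all regions, by the quasi-likelihood method with cell line as the blocking factor, TMM, low regions dropped by filterByExpr (grouped by condition) and Benjamini-Hochberg adjustment at 0.05. Standard errors were derived from each F statistic. Labels pair the libraries by cell line, and each lenalidomide library correlated best with its own line (r from 0.81 to 0.88, 6 of 6). On simulated data the test recovered 129 of 200 regions changed 2-fold among 37732, with 6 false calls. Alternatives were DESeq2 1.42.0, other scalings, filters, pseudocounts and neighbour windows, no block, and each pair left out.

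A promoter was the region nearest a gene's start and within 2.5 kb of it. Regions were named by rule: each member's promoter, its distal regions with the highest mean and SD, pathway promoters past the threshold, and for CRBN the 3 most similar promoters on its own and on other chromosomes. Members and lists were chosen with earlier results of these data known. Promoter sequences are from RefSeq (GRCh38.p14), and all 15 windows of the 8 genes matched GRCh37 at exactly 1 place. Motifs were searched on both strands: the E-box, CCAAT box, GC box, TATA box (TATAAA), ETS motif and cores of the NRF1 and CTCF motifs. The deposited normalized coverage and a file of positions alone were not used, sequence in annotated exons was searched but is not printed, and 1 marker gene is not reported here.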

Additional observations from a re-analysis of the deposited data

Results flagged for a closer look

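Among 21 sets of 6 values examined (untreated CPM, lenalidomide CPM and log2 change at the 7 tested regions), 1 held a value far from the others, about as many as the 1.05 that chance gives at 1 in 20. It was the DDB1 promoter in untreated KMS27, with 39.5 CPM against 27.0 CPM in the next line. Over all 22 untreated lines KMS27 was the highest as well, and the 78 open promoters within 5 Mb deviated there by 0.72 on the log2 scale.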

How the results depend on the processing

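No alternative brought a member region or a summed member gene past the threshold, and the lowest adjusted p among 154 values was 0.177. The 1 pathway promoter past the threshold, ZNF692, was called in every fit with a pair left out and with DESeq2, as it was under the other scalings and filters, which were added for it after the data had been seen, and 0 were called with no replicate block.

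Changes near 0 turned direction in 19 of the 154 values. Without the replicate block the log2 change was -0.0356 at GLUL and -0.0102 at RBX1, and for summed counts -0.0169 and -0.0127. With library totals RBX1 was at -0.00443, or -0.00211 summed, and with DESeq2 size factors at -0.00509. With no filter CSNK1A1 was at 0.0246. With 1 pair left out, the ranges were -0.0754 to 0.125 at GLUL (-0.0277 to 0.129 summed, lowest without KMS27), -0.0882 to 0.0638 at RBX1 (-0.0867 to 0.0811 summed), -0.168 to 0.00865 at CUL4A (highest without Karpas620), and -0.273 to 0.0616 at the region upstream of CRBN (highest without RPMI8226). The CRBN promoter ran from -0.32 to -0.13. The causes were not tested.

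By mean log2 level RBX1 came before GLUL, the reverse of their order by mean CPM per kb, and that order by log2 level was the same under TMM scaling and a pseudocount of 0.1. GLUL was the single member above the 90th percentile of spread under these and with wider windows. GLUL was at the 95.6th to 96.6th percentile. Depth limits GLUL most in OPM2, where its value rests on 1 count.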

Other observations

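The promoters most similar to GLUL over the 22 untreated lines were looked up after its values had been seen. They were FGF18 (Pearson r = 0.84), PCDH1 (r = 0.78) and CCM2L (r = 0.77) on other chromosomes, and AK4 (r = 0.70), C1orf115 (r = 0.58) and MFSD4 (r = 0.57) on chromosome 1. FGF18, a growth factor, had 14.4 CPM on average with an SD of 1.57 on the log2 scale, and AK4, an adenylate kinase, had 24.1 CPM with an SD of 1.64. These are the highest among 11041 coefficients, taken separately on chromosome 1 and on the other chromosomes, and are a description of these libraries.

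The region at the first CUL4A start, listed under PCID2, and the CUL4A region described above followed each other over the lines (r = 0.89, rho = 0.87; r = 0.83 without the 2 farthest lines), while both moved with the share of counts in regions covering a start. The neighbouring promoters of CUL4A had an SD of 0.69 between lines, against 0.37 around CRBN.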
